A study of Homo sapiens
Mus musculus and Homo sapiens and Mus musculus with 7 samples.

Results

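RNA pulled down with an antibody against the HA tag was compared with RNA pulled down with an antibody against the V5 tag, once for human genes and once for mouse genes. The comparison used 4 of the 7 libraries of the series, 2 HA immunoprecipitates (IPs) and 2 V5 IPs, chosen by the antibody named in the sample labels. All 4 came from a mixed culture of HEK293 cells, a line from human embryonic kidney, and NIH3T3 cells, a line of mouse embryonic fibroblasts. The HEK293 cells expressed the ribosomal protein RPL22 fused to HA, and the NIH3T3 cells expressed RPL22 fused to V5, so both tags were present in every culture that went into an IP. HA is therefore the on-target antibody for human RNA and the off-target antibody for mouse RNA, and V5 the reverse. The first HA IP and the first V5 IP were made from the lysate of sample 1, the second HA IP from the lysate of sample 5 and the second V5 IP from the lysate of sample 4. The sources used here do not say whether those lysates were separate cultures, how the tagged genes were introduced or whether either line is a single clone. The other 3 libraries, total RNA of the co-culture (the input) and of each line grown alone, have no replicate and serve as reference levels. Counts of each gene were scaled to the counts of its own species in the library, so the species share dropped out, and 6244 of 58721 human and 8221 of 54752 mouse genes had enough counts to be tested.

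RPL22 is a protein of the large subunit of the cytosolic ribosome, and an antibody against a tag on it pulls down ribosomes together with the messenger RNA they are translating. Ribosomes inside mitochondria are a separate kind with their own ribosomal RNAs and proteins, and they translate the few messages encoded by mitochondrial DNA. RNA of the other species in an IP can come from ribosomes without the matching tag, or from no ribosome, and is often called background. Counts on genes of the other species can also be reads of the on-target species that mapped to them.

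The 4 IPs differed in how many counts stood behind each species. Of all counts, 82.1% and 77.6% lay on human genes with HA and 6.25% and 4.48% with V5, a difference of 74.5 percentage points (exact permutation test, two-sided, p = 0.333, the smallest that 6 assignments of 2 against 2 libraries allow). That left 729698 and 1213213 human counts for the first and second HA IPs but 128915 and 81798 for the V5 IPs. Mouse counts were 1934970 and 1744329 with V5 but 158572 and 350176 with HA. At these depths 3 counts over a pair of libraries amount to 1.54 counts per 1000000 human counts (CPM) in the HA IPs and to 14.2 CPM in the V5 IPs. Over genes with a mean of at least 50 CPM, log2 levels correlated across 2341 human genes with Pearson's r = 0.919 within the HA pair and 0.631 within the V5 pair, and across 2274 mouse genes with r = 0.957 within the V5 pair and 0.795 within the HA pair. The off-target pairs were the shallower and the less alike. Of 12 genes associated with HEK293, 9 and 8 had human counts with HA and 4 and 5 with V5. Of all human genes, 11644 and 11619 had counts with HA and 6373 and 5312 with V5, so detection fell for genes at large too. Summed levels of the 12 were 365 and 232 CPM with HA against 147 and 122 CPM with V5, which rest on 19 and 10 counts. EPCAM and NEFM were at 0 in all 4 IPs, and in the HEK293 monoculture too. Of 19 fibroblast genes, 7 and 5 had human counts with HA and 5 and 2 with V5, with summed levels of 441 and 580 CPM against 652 and 306 CPM, and 8 had counts in the HEK293 monoculture, summing to 316 CPM. Of the 19, COL3A1, COL1A2, PDGFRA and THY1 were at 0 in every IP, and in the input and the HEK293 monoculture too. Mouse fibroblast markers were not looked up, since mouse identifiers had no symbols in the sources used here.

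The gene of the tagged protein did not separate the antibodies within human counts. RPL22 (ENSG00000116251.10) stood at 230 and 184 CPM in the HA IPs and at 194 and 465 CPM in the V5 IPs, with 118 CPM in the input and 88.3 CPM in HEK293 alone. The 2 groups overlapped, and the log2 difference of HA minus V5 was −0.27 (SE 0.60; edgeR quasi-likelihood test, adjusted by Benjamini and Hochberg's method, adjusted p = 0.893). Without the second V5 IP it was 0.45. Its paralogue RPL22L1 was at 207 and 174 CPM in HA and 264 and 318 CPM in V5 (log2 −0.23, SE 0.59; adjusted p = 0.912). All such p-values rest on the spread within the HA pair and within the V5 pair alone, which may be technical. Cross-mapping estimated from the NIH3T3 monoculture could make up 14.6% of the V5 counts of RPL22, against 0.362% of all V5 counts on human genes tested.

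Messages and ribosomal RNAs made inside mitochondria formed the largest group of genes that differed. The first 30 bases of 3 mitochondrial messages show where the annotated RNA begins: at the start codon, given in capitals, with no annotated leader before it. The start codon is ATA in MT-ND1, ATT in MT-ND2 and ATG in MT-CO1. Of the other called messages, MT-ND3 and MT-ND5 begin with ATA, and MT-CO2, MT-CO3, MT-ATP6, MT-ND4 and MT-CYB with ATG. The sequences are those of GENCODE 29 on hg38, plus strand, from MT-ND1 at chrM:3307-4262, MT-ND2 at chrM:4470-5511 and MT-CO1 at chrM:5904-7445.
MT-ND1: ATAcccatggccaacctcctactcctcatt
MT-ND2: ATTaatcccctggcccaacccgtcatctac
MT-CO1: ATGttcgccgaccgttgactattctctaca

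In both species mitochondrial RNA made up a smaller share of the counts where the antibody matched the tag. Mitochondrially encoded genes took 0.354% and 0.466% of human counts with HA but 2.28% and 3.54% with V5, compared to 5.58% in the input and 8.35% in HEK293 alone. For mouse counts the shares were 2.22% and 2.02% with HA but 0.222% and 0.234% with V5, compared to 1.97% in the input and 2.97% in NIH3T3 alone. Each off-target library lay above each on-target library of its species. Over the 4 possible pairs of libraries the off-target share was 4.88 to 9.99 times the on-target share for human counts and 8.60 to 10.01 times for mouse counts. The exact permutation p of each difference was 0.333, the smallest possible. Relative to the input, the off-target IPs were not alike in the 2 species: human shares in the V5 IPs lay below that of the input, and mouse shares in the HA IPs lay close to it.

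**Figure D1:**
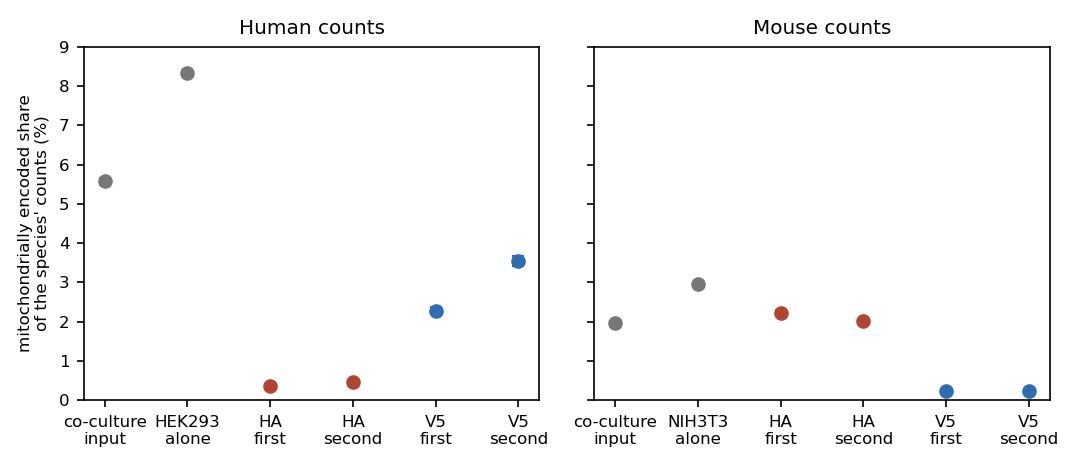
Share of each species' counts that fell on mitochondrially encoded genes (percent, linear axis from 0) in the input, the matching monoculture and the 4 IPs, with exact Clopper-Pearson intervals that are mostly smaller than the points and cover counting error only. Human shares are 0.354% and 0.466% in HA and 2.28% and 3.54% in V5, and mouse shares are 2.22% and 2.02% in HA and 0.222% and 0.234% in V5.

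Gene by gene, 12 of the 17 human mitochondrial genes tested were lower in HA than in V5 IPs, and none was higher, where 0.32% of all 6244 human genes tested were lower. They were the 2 ribosomal RNAs and 10 of the 13 messages, and 16 of the 17 had both HA IPs below both V5 IPs, a pattern that 15% of all human genes tested showed. The median log2 difference of the 17 was −2.39, beside 0.37 for all human genes. The all-gene value comes from the trimmed-mean scaling (TMM): it is 0.03 with DESeq2 size factors and 0.00 with species totals, so changes of human genes are to be read relative to 0.37.

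MT-RNR2, the large mitochondrial ribosomal RNA, stood at 1810 and 2291 CPM in the HA IPs and 12163 and 18912 CPM in the V5 IPs, with 26074 CPM in the input. Its log2 difference was −2.51 (SE 0.37; edgeR adjusted p = 3.68e-08). MT-RNR1, the small one, stood at 46.6 and 37.9 CPM in HA and 543 and 342 CPM in V5 (log2 −3.03, SE 0.52). For both RNAs the lower V5 IP was several times above the higher HA IP. The 2 ribosomal RNAs together took 0.186% and 0.233% of human counts in HA and 1.27% and 1.93% in V5. The 13 messages took 0.167% and 0.232% in HA and 0.998% and 1.599% in V5. Both kinds of RNA were thus lower in each HA IP than in each V5 IP.

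Among the messages, those of complex I, the NADH dehydrogenase that starts the respiratory chain, included the largest differences. MT-ND1 was at 69.9 and 138 CPM in HA and 729 and 1589 CPM in V5 (log2 −3.0, SE 0.47; edgeR adjusted p = 2.53e-07). MT-ND2 was at 71.3 and 81.6 CPM in HA and 659 and 672 CPM in V5 (log2 −2.72). MT-ND3, with the largest fitted difference, rested on 1 and 10 counts in HA and 14 and 4 in V5 (log2 −3.45, SE 0.89; edgeR adjusted p = 0.0273). Its call was lost with the replicate block (0.0608), with no filter (0.0899), with a filter of 50 counts in 2 libraries (0.0872), with only the 4 IPs fitted (0.391), without the input (0.0757) and after thinning (0.375). Of the fits that left out an IP, MT-ND3 passed only without the second V5 IP. MT-ND4 and MT-ND5 differed by −2.38 and −2.39. None of these genes overlapped between the antibodies. MT-CO1, MT-CO2 and MT-CO3, the core subunits of cytochrome oxidase, differed by −2.28, −2.03 and −2.15. MT-CO2 was the most abundant message of the group in the V5 IPs, at 2552 and 3435 CPM against 460 and 637 CPM in HA. MT-ATP6, a subunit of the ATP synthase, differed by −2.49 and MT-CYB, the cytochrome of complex III, by −2.05, from 237 and 348 CPM in HA to 1187 and 2078 CPM in V5.

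The 5 mitochondrial genes that did not pass the test were thinly counted. MT-ND4L, MT-ND6 and MT-ATP8, which encode small subunits of complex I and the ATP synthase, had log2 differences of −2.46, −2.10 and −2.05 (edgeR adjusted p = 0.217, 0.257 and 0.265). The transfer RNAs MT-TV and MT-TP had at most 7 counts in any IP. Counting used no strand, so counts of MT-ND6, which lies on the other strand, cannot be told from RNA of the opposite strand there. Genes that share bases, such as MT-ATP8 with MT-ATP6, cannot be told apart where they overlap. All 12 called genes lay below the input in both antibodies. Without the first V5 IP 4 of the 12 passed the test and without the second 3 did, whereas 11 passed without either HA IP. MT-ND2 passed in each of these.

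In mouse genes the same group differed in the opposite direction. Of the 12 genes of the mitochondrial chromosome tested, 11 were higher in the HA IPs, where 0.243% of all 8221 mouse genes tested were higher. Their log2 differences ran from 2.54 to 3.61 (edgeR adjusted p from 8.24e-06 to 0.0197), with a median of 3.06 over the 12, beside −0.13 for all mouse genes. In each of the 11 both HA IPs lay above both V5 IPs, which 17.7% of all mouse genes tested showed. The 12th gene had 0 counts in all 4 IPs. All 11 lay below the input in both V5 IPs, while in the HA IPs 8 lay above the input in both libraries and 2 below it. Without the first V5 IP none of the 11 passed and without the second 1 did, although each kept its direction. All 11 passed without either HA IP.

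**Figure D2:**
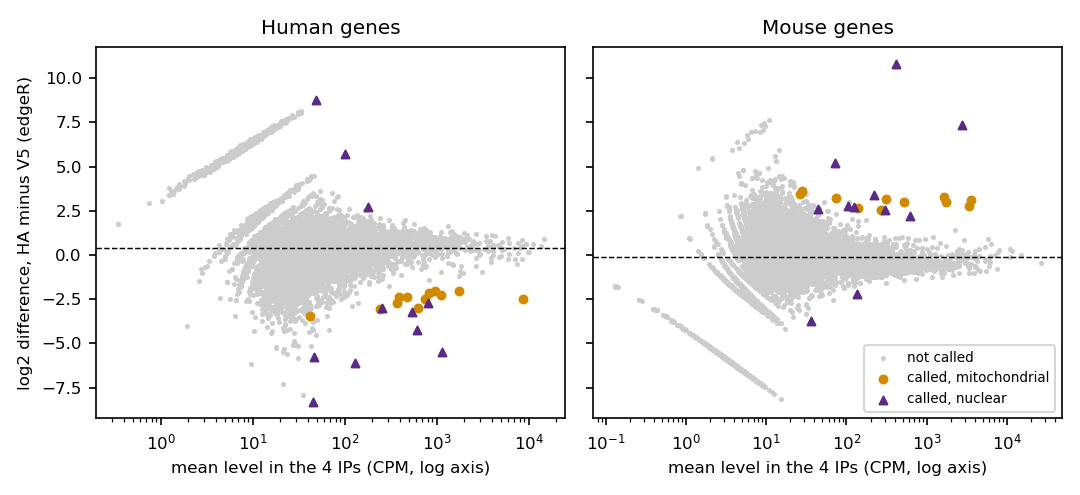
Log2 difference of HA minus V5 from edgeR (linear axis) against the mean level in the 4 IPs (CPM of the species' counts, log axis), 1 point per gene tested, with the all-gene median as a dashed line. Called mitochondrial genes (circles) lie at −2.03 to −3.45 among 6244 human genes and at 2.54 to 3.61 among 8221 mouse genes. Called nuclear genes are drawn as triangles, and the outermost slanted band of each panel holds genes with 0 counts in the off-target pair of IPs.

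Outside mitochondria 11 human genes differed, 8 lower and 3 higher in HA, where 0.048% of all human genes tested were higher. The 8 lower genes include myosin heavy chains, kinases of cell division and DNA repair, and a Golgi tether. They took 0.0628% and 0.0199% of human counts with HA, 0.662% and 0.696% with V5 and 0.0571% in the input. These shares include TNR, for which cross-mapping from mouse RNA could make up 67.9% of the V5 counts. TNR gave 168 of the 854 counts in the first V5 IP, 266 of 569 in the second and 125 of 160 in the input. In the V5 IPs every one of the 8 lay above its input level and above its HEK293 level in both libraries. The 8 were called for high values in these same V5 IPs, so their place above the input is partly built in. For CIT, IFFO1 and ONECUT2 that place came with the choice. They had 0 counts in the input and had enough counts to be tested only through the V5 IPs. Apart from TNR none had more input counts than PRKDC, with 21. The share of all human genes tested that lay above the input was not computed. In the HA IPs 1 of the 8 lay below the input in both libraries and 3 above it.

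MYH9, the heavy chain of non-muscle myosin IIA (ENSG00000100345.21; hg38 chromosome 22, 36281277 to 36388067), stood at 107 and 5.77 CPM in the HA IPs and at 2032 and 330 CPM in the V5 IPs. The input held 35.7 CPM and HEK293 alone 21.8 CPM. Both V5 IPs lay above both HA IPs, although each pair spread widely (log2 −4.23, SE 0.60; edgeR adjusted p = 3.73e-09). MYH10, the heavy chain of non-muscle myosin IIB (chromosome 17, 8474205 to 8630761), stood at 85.0 and 14 CPM in HA and 590 and 330 CPM in V5 (log2 −3.0, SE 0.69; edgeR adjusted p = 0.00405). In HEK293 alone it was at 38.7 CPM. For both myosins the first HA IP was the higher of its pair, and the first V5 IP too. MYH9 lost its call when the first V5 IP was left out (edgeR adjusted p = 0.0619), with only the 4 IPs fitted (0.0879), with a filter of 50 counts (0.116) and in DESeq2's Wald test (0.414). MYH10 lost its call without the second HA IP (edgeR adjusted p = 0.9997, log2 −2.30), with only the 4 IPs fitted (0.0879) and with the filter of 50 counts (0.119).

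CIT, citron kinase, which acts in the last step of cell division (chromosome 12, 119685790 to 119877291), rested on 1 and 4 counts with HA and 4 and 40 with V5. As levels these were 1.37 and 3.3 CPM against 31.0 and 489 CPM, so most of the difference came from the second V5 IP (log2 −6.10, SE 1.10; edgeR adjusted p = 2.99e-05). Its call was lost without the first HA IP (0.101), without the second (0.0975) and after thinning all IPs to one depth (0.0596), and without the second V5 IP it had too few counts to be tested. TRIP11, a coiled-coil protein of the Golgi that tethers vesicles (chromosome 14, 91965991 to 92040896), stood at 94.6 and 68.4 CPM in HA and at 450 and 1553 CPM in V5, with 7.14 CPM in the input and 31.5 CPM in HEK293. Its log2 difference was −3.23 (SE 0.59; edgeR adjusted p = 2.99e-05), and it kept its call in all 12 alternative settings and in all 4 fits that left out an IP, with adjusted p up to 0.0495. PRKDC, the catalytic subunit of the DNA-dependent protein kinase, which joins broken DNA ends (chromosome 8, 47773108 to 47960183), stood at 310 and 61.8 CPM in HA and at 1963 and 892 CPM in V5. Its log2 difference was −2.71 (SE 0.52; edgeR adjusted p = 0.000135), and the call was lost without the second HA IP (0.0763), without the first V5 IP (0.0860), with only the 4 IPs fitted (0.0608) and with the filter of 50 counts (0.0658).

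IFFO1, a protein related to intermediate filaments (chromosome 12, 6538375 to 6556083), had 0 counts in both HA IPs and 17 and 4 with V5. With 3 counts over the HA pair in place of 0 it was at least 64.5-fold lower in HA (edgeR adjusted p = 0.00405). ONECUT2, a transcription factor of the cut family (chromosome 18, 57435685 to 57491297), had 2 and 0 counts in HA and 16 and 5 in V5, a ratio of 96.8 of V5 over HA (23.7 to 852, exact interval for counting error; edgeR adjusted p = 0.0446). Neither gene was seen in the input, where both had 0 counts, and each was at 7.26 CPM in HEK293. Both lost their calls without either HA IP and with the replicate number as a block (edgeR adjusted p = 0.212 for IFFO1 and 0.365 for ONECUT2), and ONECUT2 also with no filter (0.0662), with only the 4 IPs fitted (0.0879) and with mitochondrial genes left out (0.0905). IFFO1 also lost its call after thinning (0.783), and neither gene had enough counts to be tested without the first V5 IP.

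TNR, tenascin R, a matrix protein of the nervous system (chromosome 1, 175315194 to 175743770), had the smallest p-value but is uncertain as a human signal. It stood at 27.4 and 45.3 CPM in the HA IPs, 1303 and 3252 CPM in the V5 IPs and 446 CPM in the input, but at 7.26 CPM in HEK293 alone (log2 −5.50, SE 0.57; edgeR adjusted p = 3.61e-18). The NIH3T3 monoculture, which holds no human cells, gave 160 counts to this human gene. Scaled to the mouse counts of the V5 IPs, that predicts 295 of the 434 human TNR counts there, or 67.9%. Of the other called human genes MT-CO1 alone had any predicted, 1.84 counts or 0.488%.

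The 3 nuclear genes higher in HA included 2 proteins of focal adhesions, the sites where cells grip their support. BCAR1, an adaptor protein of these sites (ENSG00000050820.16; chromosome 16, 75228187 to 75268053), had 158 and 221 counts in HA and 1 and 0 in V5, a ratio of 41.1 over the pooled libraries (7.33 to 1628, exact interval). At 217 and 182 CPM the HA IPs stood far above the 10.7 CPM of the input and the 3.63 CPM of HEK293 alone (log2 5.69, SE 1.22; edgeR adjusted p = 0.00121). ZYX, zyxin, which binds actin at focal adhesions (chromosome 7, 143381080 to 143391111), had 61 and 136 counts in HA and 0 in both V5 IPs, and was at least 7.12-fold higher in HA (edgeR adjusted p = 0.0238). PCBD1, an enzyme that recycles the cofactor of aromatic amino acid hydroxylases and also binds a liver transcription factor (chromosome 10, 70882280 to 70888784), stood at 243 and 363 CPM in HA and 69.8 and 48.9 CPM in V5, with 218 CPM in the input. Its log2 difference was 2.73 (SE 0.69; edgeR adjusted p = 0.0238). Exons of other genes cover 8.71% of the exonic bases of BCAR1 and 2.35% of those of ZYX.

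None of these 3 calls held in every setting. BCAR1 lost its call without the first HA IP (edgeR adjusted p = 0.144), without the second (0.698), with the filter of 50 counts (0.0712), after thinning (0.634) and in DESeq2's Wald test (0.117). ZYX and PCBD1 both lost theirs with species totals as library sizes (edgeR adjusted p = 0.0547 for each), and each passed in 5 settings. Of the 4 fits that left out an IP, ZYX passed only without the second V5 IP and PCBD1 only without the first HA IP.

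**Figure D3:**
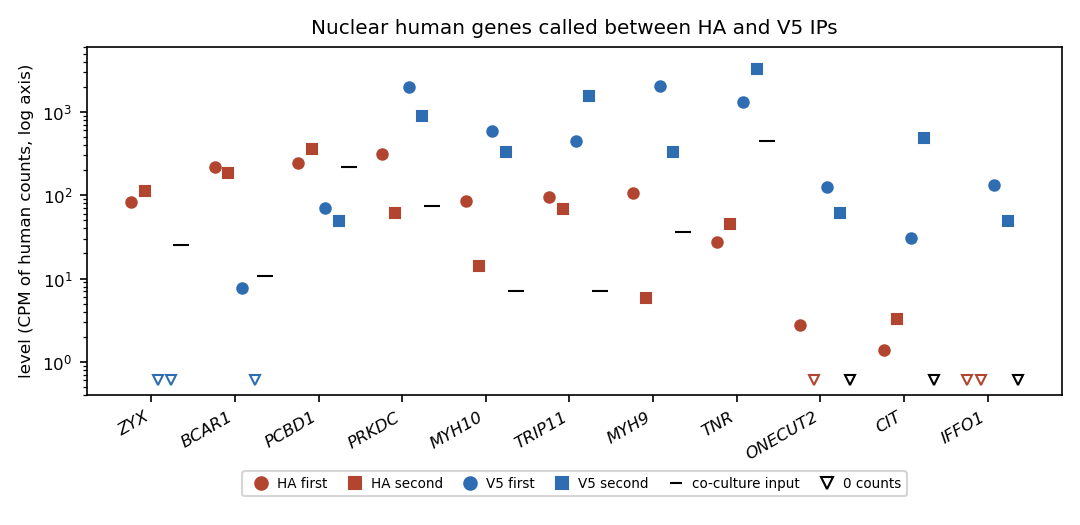
Levels of the 11 called nuclear human genes in each IP and in the input (CPM of human counts, log axis), with genes ordered by fitted difference and open triangles for 0 counts. ZYX, BCAR1 and PCBD1 have both HA IPs (red) above both V5 IPs (blue), and the other 8 have both V5 IPs on top, with MYH9 at 107 and 5.77 CPM in HA and 2032 and 330 CPM in V5.

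The 10 genes next in order of p-value did not pass (edgeR adjusted p from 0.0615 to 0.0918). Those with more counts in V5 were NUP160, a subunit of the nuclear pore, FANCD2, a protein of DNA crosslink repair, INTS1, a subunit of the Integrator complex, and STOX2. FANCD2 stood at 19.2 and 26.4 CPM in HA and 318 and 122 CPM in V5. STOX2 had 0 counts in both HA IPs and 12 and 4 in V5. Those with more in HA included CCDC124, NUDCD2, IAH1, ARL6IP5 and ACP1. CCDC124, a protein that binds ribosomes, was the most abundant of the 10, at 1835 and 1927 CPM in HA and 822 and 782 CPM in V5, with narrow spread in both pairs (log2 1.62, SE 0.45; edgeR adjusted p = 0.0701). CCDC124 passed with the replicate block (0.0265), with species totals (0.0162), with no filter (0.0352), with the GC trend removed (0.0288) and without the first HA IP (0.000548). NUDCD2 passed with the replicate block (0.0277), after thinning (0.0178) and without the first HA IP (0.0379). Of the settings that kept all IPs, NUP160 passed in 5, STOX2 in 5, FANCD2 in 4 and INTS1 in 3, among them DESeq2 size factors and species totals for each of the 4. IAH1 had 54 and 72 counts in HA and 0 in V5, but exons of other genes cover 22.4% of its exonic bases. Without the first V5 IP NUP160 passed (9.67e-06), and without the second FANCD2 (0.000532), INTS1 (0.000183) and IAH1 (0.0368) did.

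Among nuclear mouse genes 9 were higher in the HA IPs and 2 were lower, where 0.0243% of all mouse genes tested were lower. The 9 took 0.915% and 0.876% of mouse counts with HA, 0.0377% and 0.0416% with V5 and 0.0451% in the input. Most of the HA counts came from a single gene, ENSMUSG00000031955.10, with 788 of 1451 in the first HA IP and 2121 of 3069 in the second. In both HA IPs 8 of the 9 lay above the input and 7 above NIH3T3 alone. The 9 were called for high values in these same HA IPs, so this is partly built in. Some of them, ENSMUSG00000043909.16 included, had enough counts to be tested only through the HA IPs. The share of all mouse genes tested that lay above the input was not computed.

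ENSMUSG00000031955.10 on chromosome 8 stood at 4969 and 6057 CPM of mouse counts with HA and at 47.5 and 12 CPM in the V5 IPs, with 103 CPM in the input and 89.1 CPM in NIH3T3 alone. The 2 groups were far apart (log2 7.33, SE 0.56; edgeR adjusted p = 4.27e-10). ENSMUSG00000043909.16 on chromosome 2 had 192 and 163 counts in HA and 1 and 0 in V5, although the V5 IPs held many more mouse counts. As levels in HA these were 1211 and 465 CPM, against 1.32 CPM in the input and 3.5 CPM in NIH3T3 (ratio 2567, exact interval 458 to 101688; edgeR adjusted p = 5.73e-11). Both genes passed in every alternative setting and in every fit that left out an IP. Neither had a count in the HEK293 monoculture.

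The 2 mouse genes lower in HA showed smaller differences. ENSMUSG00000075705.12 on chromosome 17 stood at 63.1 and 48.5 CPM in HA and 216 and 222 CPM in V5 (log2 −2.20, SE 0.46; edgeR adjusted p = 0.0208), close to the 192 CPM of the input. ENSMUSG00000023277.13 on chromosome 9, which is below the level set for naming mouse genes and was chosen after its values were seen, stood at 0 and 8.57 CPM in HA and 62.0 and 75.7 CPM in V5 (edgeR adjusted p = 0.0271). Both lost their calls with species totals (0.0664 and 0.102), with the filter of 50 counts (0.156 and 0.281), with only the 4 IPs fitted (0.184 and 0.505) and without either V5 IP. The second also lost its call in DESeq2's Wald test (0.0918) and with mitochondrial genes left out (0.0508).

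Exonic length was long in the human genes that were higher off target and mixed in the mouse genes. The choice of members did not use length itself. It did rest on counts, which can rise with length, and the part of this was not tested. The 8 human genes lower in HA had exonic lengths of 5.203 to 16.234 kb with a median of 11.7 kb. All 8 were longer than 5 kb, as were 44.4% of all nuclear human genes tested. The 8 include TNR, for which cross-mapping could make up 67.9% of the V5 counts. They also include CIT, IFFO1 and ONECUT2, which had enough counts to be tested only through the V5 IPs. The 9 mouse genes higher in HA ran from 2.639 to 15.433 kb with a median of 6.98 kb, and 6 of them were longer than 5 kb, beside 37% of all nuclear mouse genes tested. Human genes higher in HA were 1.614, 3.482 and 9.178 kb long, for PCBD1, ZYX and BCAR1.

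Across genes the fitted difference between on-target and off-target antibody fell with exonic length in both species, as a description of these libraries. In mouse genes not every single pair of libraries showed this. Spearman's rho was −0.19 over all 6227 nuclear human genes tested and −0.18 over all 8209 nuclear mouse genes tested. Among those with a mean of at least 50 CPM, rho was −0.30 over 2328 human genes and −0.26 over 2265 mouse genes. Both species share libraries and are not independent replicates. The mean was taken over the IPs of both antibodies. A gene below 50 CPM on target could thus enter only with a higher off-target level. The part of this selection in the relation was not tested. Relative to all genes of the species, human genes of 1 to 2 kb had a median log2 difference of 0.34 and those over 8 kb −0.43, and mouse genes of these lengths had 0.32 and −0.33. In single pairs of libraries the human rho ran from −0.13 to −0.27, and the mouse rho from 0.04 to −0.36. Length also separated the HA IPs, with a rho of 0.27 in human and 0.32 in mouse genes for the first relative to the second. For the first V5 IP relative to the second, rho was 0.0006 in human and 0.19 in mouse genes. Depth differed too, and the part of these differences in the relation was not tested. Transcript GC content gave a rho of 0.03 over the human genes.

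**Figure D4:**
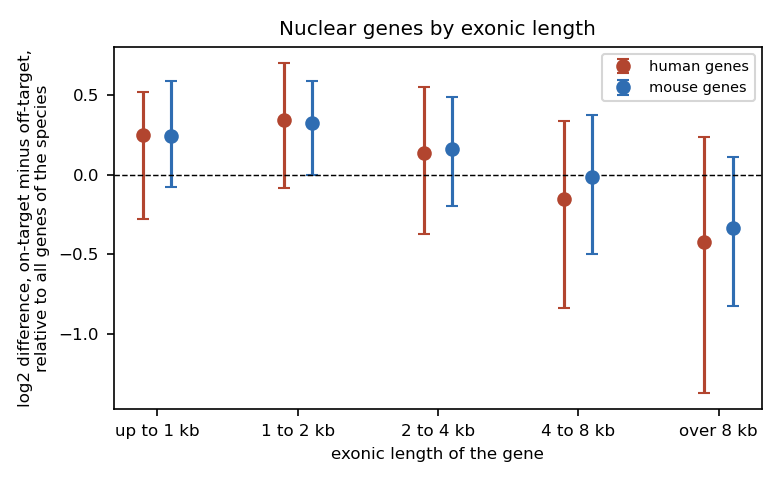
Median log2 difference of on-target minus off-target antibody, relative to all genes of the species (linear axis), for nuclear genes with a mean of at least 50 CPM by exonic length, with bars from the lower to the upper quartile of genes. Medians run from 0.34 at 1 to 2 kb to −0.43 over 8 kb in human genes and from 0.32 to −0.33 in mouse genes. The quartile ranges of neighbouring bins overlap. The mean CPM was taken over the IPs of both antibodies.

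Gene lists of 24 pathways, complexes and cell type markers placed the human result in context. They are described by counts and medians, each median given relative to that of all human genes tested and not tested as a set. Apart from the mitochondrial list, single members were called in the list of actomyosin and focal adhesion, where 2 of 28 rose (BCAR1 and ZYX) and 2 fell (MYH9 and MYH10) around a median of −0.12, and in the list of microtubule motors and giant cytoskeletal proteins, where 1 of 13 fell (CIT) at a median of −1.19. In the other 21 lists no gene passed. Medians from single pairs of an HA and a V5 library showed how far these rest on the library: of 22 lists with at least 5 genes tested, 11 lay below all genes in all 4 pairs, 2 lay above in all 4, and 9 changed sign between pairs.

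Nuclear genes for the respiratory chain, which are translated on cytosolic ribosomes, lay on the other side from their mitochondrial partners. Of 49 tested, 39 lay above the all-gene median and the list median was 0.45 higher. The list took 3.27% and 3.23% of human counts with HA, 2.495% and 2.47% with V5 and 2.55% in the input. In 23 of them, or 46.9%, both HA IPs lay above both V5 IPs, as in 25.7% of all human genes tested. Over single pairs the relative median ran from 0.11 to 0.44. The genes are short, with a median exonic length of 2.71 kb beside 4.52 kb for all genes tested. ATP5MC3, a subunit of the ATP synthase ring, stood at 2379 and 2680 CPM in HA and 2412 and 2274 CPM in V5 (log2 0.51, SE 0.41; edgeR adjusted p = 0.634).

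Ribosomal protein genes, whose messages are the most abundant on ribosomes, sat at the all-gene median. The 48 large-subunit genes had a relative median of 0.01 and the 32 small-subunit genes one of 0.04, but 3 of the 4 single pairs gave values below 0 for each list, down to −0.55 and −0.50. Large-subunit genes took 15.1% and 16.3% of human counts in HA and 17.0% and 16.6% in V5. RPL8 stood at 11006 and 12813 CPM in HA and at 9999 and 10563 CPM in V5 (log2 0.61, SE 0.37; edgeR adjusted p = 0.523). RPS15 stood at 13559 and 20300 CPM in HA and 11131 and 13594 CPM in V5 (log2 0.88; adjusted p = 0.331), and the groups overlapped. Both passed without the first HA IP (adjusted p = 0.00317 and 3.36e-08). Among 35 translation factors the relative median was −0.37. EIF1, which selects start codons, was at 2560 and 2784 CPM in HA and 1326 and 2408 CPM in V5. EEF1A1, which brings transfer RNA to the ribosome, went the other way, at 1325 and 796 CPM in HA and 2575 and 2457 CPM in V5 (log2 −0.91, SE 0.42; adjusted p = 0.406). EEF1A1 passed with species totals (log2 −1.25; adjusted p = 0.00304) and after thinning (log2 −1.36; adjusted p = 0.0249).

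RNAs that stay in the nucleus or are not translated leaned toward V5, with few of them counted. Of 13 listed 6 were tested, none passed, and the relative median was −1.32, with single pairs from −1.49 to −0.74. MALAT1, a long nuclear RNA, stood at 311 and 423 CPM in the HA IPs and at 1001 and 1602 CPM in the V5 IPs, with 221 CPM in the input and 2906 CPM in HEK293 alone. The groups did not overlap, and the log2 difference was −1.40 (SE 0.45; edgeR adjusted p = 0.201). It passed with DESeq2 size factors (0.00210), with species totals (1.38e-05), with the filter of 50 counts (0.0195), after thinning (0.00499), without the second HA IP (0.00538) and in DESeq2's Wald test (0.0151). NORAD, a cytoplasmic non-coding RNA, had at most 6 counts in any IP. The 12 snoRNA host genes tested had a relative median of −0.48.

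Nucleolar and replication genes also lay below all genes in every pair, without a call. The 26 genes of the nucleolus and ribosome assembly had a relative median of −0.61, and 12 of them, or 46.2%, had both HA IPs below both V5 IPs, beside 15% of all human genes tested. NCL, nucleolin, stood at 1481 and 996 CPM in HA and 2645 and 2164 CPM in V5 (log2 −0.61, SE 0.43; edgeR adjusted p = 0.588). NPM1, nucleophosmin, was at 4085 and 2338 CPM in HA and 4740 and 4389 CPM in V5. The 29 replication genes had a relative median of −0.66, and MCM5, a subunit of the replicative helicase, was at 137 and 125 CPM in HA and 349 and 318 CPM in V5 (log2 −0.97, SE 0.54; adjusted p = 0.495). Its 2 groups did not overlap.

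The remaining lists held no called gene either. HEK293-associated markers had a relative median of 0.96 over the 6 tested, above all genes in every pair (0.079 to 1.46). The 4 immediate early genes tested had one of −2.10, below all genes in every pair (−1.58 to −1.26). MYC, a transcription factor of cell growth in that list, was at 121 and 94 CPM in HA and 163 and 232 CPM in V5 (log2 −0.50, SE 0.60; edgeR adjusted p = 0.785). Proteasome genes had a relative median of −0.27 over 31 genes, spliceosome genes −0.09 over 41 and translocon and chaperone genes of the endoplasmic reticulum 0.07 over 33. SEC61B, a subunit of the protein channel of that membrane, stood at 2306 and 3256 CPM in HA and 2164 and 2506 CPM in V5, with overlap. PSMA7, of the proteasome core, was at 2364 and 2232 CPM in HA and 1621 and 1944 CPM in V5. Glycolysis genes had 1 of 14 above the all-gene median, and a relative median of −0.44. The ATF4 stress response and serine synthesis had a relative median of −0.52, but single pairs ran from −1.06 to 0.76, with both pairs of the second V5 IP above 0. ATF4 itself was at 334 and 358 CPM in HA and 566 and 929 CPM in V5. PHGDH, the first enzyme of serine synthesis, was at 503 and 440 CPM in HA and 814 and 782 CPM in V5 (log2 −0.39; edgeR adjusted p = 0.785).

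**Figure D5:**
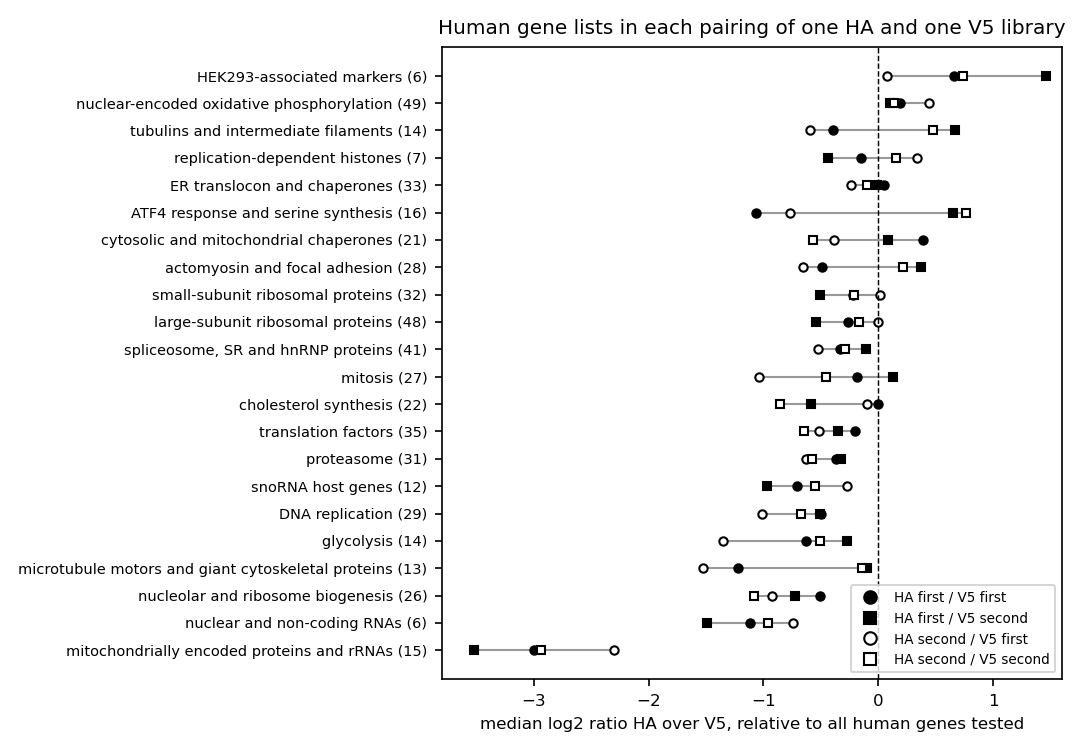
Median log2 ratio of HA over V5 of each human gene list with at least 5 genes tested, relative to all human genes tested (linear axis), for each of the 4 pairs of 1 HA and 1 V5 library, with the number of genes tested in brackets. The mitochondrial list lies between −3.52 and −2.30 and the nuclear respiratory list between 0.11 and 0.44, and 9 of the 22 lists lie on both sides of 0.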

How the data were processed

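RNA from 4 IPs, the co-culture input and both monocultures was made into libraries with SMART-seq and Nextera DNA Flex, per the labels' protocols. The authors deposited whole-number read counts per gene, made with featureCounts 1.5.2 over exons, paired and without strand, per the file headers. STAR 2.5.2, SAMtools, Trim Galore, bcl2fastq and hg38 appear in the submitters' processing notes, and the sources used here give no mouse build.

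Human identifiers matched GENCODE 29 (58721 of 58721). Mouse identifiers had no symbols, so mouse genes are given by identifier. Species counts served as library size, with TMM factors. edgeR 4.0.16 (R 4.3.3; quasi-likelihood fit, two-sided, Benjamini-Hochberg over all genes of the species, threshold 0.05) was fitted over HA, V5, input and the matching monoculture after filterByExpr (minimum count 10, minimum total 15), which left 2 residual degrees of freedom from the IP pairs. The biological coefficient of variation was 51.2% in human and 44.8% in mouse genes. Total counts were 888270 to 2063885 per IP. Cross-mapping was estimated from the other line's monoculture. Intervals are exact Clopper-Pearson 95% intervals, and a fold against 0 counts uses 3 counts over the pair. Both cover counting error only.

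Named human genes were all those called, the next 10 by p (1 of them is not reported here), RPL22, RPL22L1, and called or else the 2 most abundant members of 24 lists, of which some are left unnamed. Mouse genes were 2 identifiers per direction with the largest change and at least 50 CPM. The groups compared, lists and rules were chosen with earlier results of these data known. On simulated data with 6244 human genes the procedure found 0%, 11.9% and 60.6% of genes changed 2-fold, 4-fold and 16-fold, and 5.88% of its calls were false. With 8221 mouse genes these were 0%, 23.9%, 51.5% and 10.7%. Each simulation was a single draw that gave every gene the spread typical of its level, the same for both antibodies. It does not cover genes that vary more than others of their level, or a spread that differs between antibodies. Alternatives covered scaling, filters, DESeq2 1.42.0, a replicate block, the libraries fitted, cross-mapping, thinning, GC content, mitochondrial genes and each IP left out. Tables and plots were made in Python 3.11.15 with matplotlib 3.10.9, scipy 1.17.1, pandas 2.3.3 and numpy 2.4.6.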

Additional observations from a re-analysis of the deposited data

Results flagged for a closer look

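The mitochondrial share of counts moved in opposite directions in the 2 species: the difference of HA from V5 came to −2.496 percentage points in human counts, with both HA IPs below both V5 IPs, and to 1.89 percentage points in mouse counts, with both HA IPs above both V5 IPs. That difference between the species was not tested. The human gene TNR took 160 counts in the NIH3T3 monoculture, a library that holds mouse cells alone.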

How the results depend on the processing

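The human call count of 23 (3 higher and 20 lower in HA) was 38 with species totals and 10 with mitochondrial genes left out. The mouse count of 22 (20 higher and 2 lower) was 13 with a filter of 50 counts in 2 libraries, 12 with only the 4 IPs fitted and 9 with mitochondrial genes left out. The other settings gave human counts of 16 (only the 4 IPs fitted) to 33 and mouse counts of 21 to 28. Leaving out 1 IP gave 18 to 117 human calls and 2 to 794 mouse calls, with the lone library of a pair assumed to vary like the others. Human counts were 59 without the first HA IP, 18 without the second, 52 without the first V5 IP and 117 without the second, and mouse counts were 435, 794, 2 and 3. The lower share of human calls, 87.0%, was 100% with the filter of 50 counts and in DESeq2's Wald test, and 28.8% without the first HA IP. The human share of counts differed by 72.2 to 76.8 percentage points without each IP. The first HA and V5 IPs share the lysate of sample 1 and the second do not share one, so the replicate numbers do not pair the IPs throughout. Deviations of same-numbered IPs correlated with r = 0.21 in human and 0.36 in mouse genes. With a replicate block 24 human genes (7 higher and 17 lower, 19 of them among the 23) and 26 mouse genes were called. Of values for single genes, RPL22 turned from −0.27 to 0.45 without V5 replicate 2 (from −0.79 to 0.45 over the IPs left out) and ATP5MC3 to −0.072 with the filter of 50 counts. RPL13, at 0.18 in the main analysis, was −0.11 with DESeq2 size factors, −0.063 with species totals, −0.27 with the filter of 50 counts, −0.11 in DESeq2's Wald test, −0.057 with only the 4 IPs, −0.12 after thinning, −0.98 without HA replicate 1 and −0.58 without V5 replicate 2, up to 1.98 without V5 replicate 1. Where no cause shows in the construction, the cause was not tested. A GC correction of mouse genes was not run, since mouse transcripts were not used here. Depth limits the off-target IPs most, where 3 counts over both libraries amount to 14.2 CPM of human counts in V5 and 5.90 CPM of mouse counts in HA.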

Other observations

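RPL13, a protein of the large ribosomal subunit, followed the order of the IPs and not the antibody. It stood at 15935 CPM of human counts in the first HA IP and 17469 CPM in the first V5 IP, but at 3706 CPM in the second HA IP and 3007 CPM in the second V5 IP, with 19881 CPM in the input and 10433 CPM in HEK293 alone (log2 difference of HA minus V5 0.18, SE 0.36; edgeR adjusted p = 0.881). The second IPs came from lysates of other samples than the first, and the part of the lysate in this was not tested. KRT18, a keratin of simple epithelia, had 90 and 164 counts in HA and 0 and 4 in V5 (log2 3.04, SE 0.92; edgeR adjusted p = 0.131; 0.00497 when the second V5 IP was left out), and exons of other genes cover 16.3% of its exonic bases.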
